A study of Homo sapiens with 6 samples.

Results

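Epithelial cells hold to each other through adherens junctions, desmosomes and tight junctions, and 36 genes of these structures were followed here across doxycycline-induced silencing of MUC1 in a prostate cancer line. The members were the rows of the deposited table whose gene name matched a list of 9 adherens junction genes, 11 desmosome genes, 12 tight junction genes and 4 genes of apical polarity and the epithelial surface. They were 36 of the 60662 genes in the table, and 33 of them had enough reads to be tested. RNA came from DU-145, a human prostate carcinoma line, stably carrying a vector whose short hairpin RNA, switched on by tetracyclines, targets MUC1, a transmembrane mucin. The 3 DOX-negative cultures received vehicle and the 3 DOX-positive cultures received doxycycline (DOX) for 7 days. All 6 cultures also received 10 ng/ml interferon-gamma for 24 hours, so every value below describes interferon-treated cells. Cultures with a control hairpin, cultures without the hairpin and cultures without interferon-gamma were not analysed here, so an action of DOX itself and of MUC1 loss cannot be told apart. Whether the line was 1 clone or a pool is not given in the sources used here. The labels speak of cells cultured in triplicate and no more, so p-values here reflect how far these cultures spread, which may be technical.

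In an adherens junction, classical cadherins of neighbouring cells bind each other outside the cell, and catenins tie their tails to actin. Nectins and afadin form a second adhesion system there. Desmosomes use their own cadherins, the desmogleins and desmocollins, which plakoglobin, plakophilins and desmoplakin link to keratin filaments. Tight junctions, built from claudins, MARVEL proteins and ZO scaffold proteins, seal the space between cells near the apical surface. In carcinomas, CDH1 and other junction genes are known targets of the ZEB and SNAI repressors, which bind a form of the E-box.

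MUC1 was read first, as a check of the labels, in CPM, counts scaled to library size. It stood at 20.4, 21.8 and 22.2 CPM in the DOX-negative cultures and at 1.53, 1.31 and 1.32 CPM in the DOX-positive cultures, a fall of 15.5-fold. The 6 libraries held between 87739734 and 150921436 reads, and a count of 3 reads, the upper limit for a count of 0, equalled 0.0204 to 0.0328 CPM, counting error only. Of the DU-145 markers, the simple epithelial keratin KRT8 lay between 344.7 and 971.7 CPM, and the basal keratin KRT5 and the androgen-driven KLK3 had 0 reads in every library. Of the markers of other cells, 2 of 6 leukocyte, 1 of 7 fibroblast and 0 of 5 endothelial genes reached 1 CPM in any library. The summed leukocyte markers lay at 1.68 to 1.92 CPM in DOX-negative and 1.38 to 1.79 CPM in DOX-positive cultures, and CD3E had 0 reads. The fibroblast sums were 6.33 to 7.39 and 4.79 to 5.07 CPM, with LUM at 0 reads, and the endothelial sums were 0.852 to 0.875 and 0.417 to 0.575 CPM.

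The promoters of 3 members, AFDN, CLDN7 and CRB3, are shown because each held at least 4 copies of the E-box bound by ZEB and SNAI proteins, and all 3 genes were higher in DOX-positive cells. The E-box was searched as CACCTG and its reverse complement CAGGTG, which together cover both strands, in the 250 bases before each annotated start site in RefSeq (GRCh38.p14). The AFDN promoter lies at chr6:167827385-167827634 on the plus strand, and its 4 matches begin 150, 126, 114 and 16 bases before the start site. For CRB3 (plus strand of chr19) and CLDN7 (minus strand of chr17) only 30 bases around the matches are printed. The CRB3 stretches are chr19:6464041-6464070, chr19:6464112-6464141, chr19:6464170-6464199 and chr19:6464199-6464228. The CLDN7 stretches are chr17:7262635-7262664, chr17:7262596-7262625 and chr17:7262479-7262508. The promoter table lists another CLDN7 promoter, at chr17:7263214-7263463, which holds 0 matches. The CLDN7 window with matches lies wholly in annotated CLDN7 exon sequence (250 of 250 bases), and 193 of the 250 bases of the CRB3 window lie in CRB3 exons. Each stretch is written 5′ to 3′ on the strand of its gene, with the E-box in capitals, in the order given.
AFDN: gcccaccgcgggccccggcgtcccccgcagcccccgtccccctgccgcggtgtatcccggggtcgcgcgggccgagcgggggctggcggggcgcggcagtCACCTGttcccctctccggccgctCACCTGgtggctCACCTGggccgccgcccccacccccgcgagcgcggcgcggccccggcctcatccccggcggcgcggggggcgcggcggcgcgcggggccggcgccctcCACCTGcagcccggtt
CRB3, matches 228 and 208 bases before the start site: tgCAGGTGtaaggtccccctcaCACCTGcg
CRB3, match 147 bases before: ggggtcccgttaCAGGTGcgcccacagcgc
CRB3, match 89 bases before: ctcagcgaggctCAGGTGcacaagccggaa
CRB3, match 60 bases before: agtgcgctctccCAGGTGagtgactaaact
CLDN7, match 174 bases before: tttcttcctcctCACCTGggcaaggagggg
CLDN7, match 135 bases before: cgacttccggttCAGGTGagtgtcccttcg
CLDN7, matches 20 and 9 bases before: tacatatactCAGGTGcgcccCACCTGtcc

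The promoter table held 39 promoters of 26 members. It had no entry for CDH1, CDH3, CTNND1, NECTIN1, PKP2, PKP3, MARVELD3, F11R, LLGL2 or EPCAM. An E-box lay in 13 of the 39 promoters (33.3%), against 17.5% of all 35116 promoters in the table and 16.4% of the 18269 promoters of genes tested here. Of these 13 windows, those of AFDN, RAB25 and TJP1 held 0 annotated exon bases, and the others overlapped exons in part or wholly. The overlap was 250 of 250 bases for OCLN at chr5:69492297-69492546, 233 for JUP, 134 for DSG2 and 96 for DSP. Exon overlap over all promoters was not measured, and its part in the match counts was not tested. At least 2 copies lay in 15.4% of the member promoters, against 2.53% of all promoters. Among the promoters of genes tested, 10 held 4 or more copies, and CRB3 (5), CLDN7 (4) and AFDN (4) were 3 of them; this cutoff of 4 was chosen after the matches were seen. By direction of the gene, 10 of 21 promoters of higher members held the E-box, 1 of 6 of lower members and 0 of 8 of members not called. These promoters belong to only 14, 5 and 4 genes, and promoters of 1 gene are not independent. The same split was not made over all genes tested, so these shares have no background by direction. The promoters of the untested CDH2, NECTIN4 and RAB25 are outside this split, and those of NECTIN4 and RAB25 held 1 match each. The grainyhead motif AACCGGTT, its own reverse complement, occurred in 0 of the 39 and in 0.117% of all promoters. Member promoters were also richer in G and C, with a median of 66.8% against 58.0% over the table and 63.6% over genes tested. The part of that base composition in the match counts was not tested, and a match is a description of letters, not of binding.

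Across the 33 tested members, 23 rose and 6 fell in DOX-positive cells by edgeR's quasi-likelihood test (adjusted p under 0.05, over all 24695 genes tested). Of all genes tested, 56.5% were called, 27.6% higher and 28.9% lower. Among the 15279 genes with at least 1 CPM in 3 libraries, which 32 of the members reached, 73.3% were called, 40.6% higher and 32.7% lower. Against these, 69.7% of the tested members were called higher and 18.2% lower. The median log2 fold change was 0.41 for the members and -0.04 for all genes tested. Among the members, 8 rose and 2 fell at least 2-fold, where 3.56% of all genes rose and 9.38% fell, or 3.4% and 5.29% of genes with at least 1 CPM. The levels of the groups did not overlap for 31 of the 33 members, against 62.4% of all genes tested and 76.8% of genes with at least 1 CPM. By structure, 4 of 7 tested adherens junction genes rose and 2 fell (median 0.50), 7 of 11 desmosome genes rose and 2 fell (0.31), and 9 of 12 tight junction genes rose and 2 fell (0.40). All 3 tested genes of polarity and the epithelial surface rose (median 1.42). In RNA from whole cultures, a change in the number of cells that carry a transcript and a change in RNA per cell cannot be told apart. When libraries were scaled by their totals alone, without the TMM factors, all log2 fold changes moved by a median of -0.14. The split over all genes then became 4689 higher and 9579 lower, against 6825 and 7132, while the members stood at 22 higher and 9 lower.

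**Figure D1:**
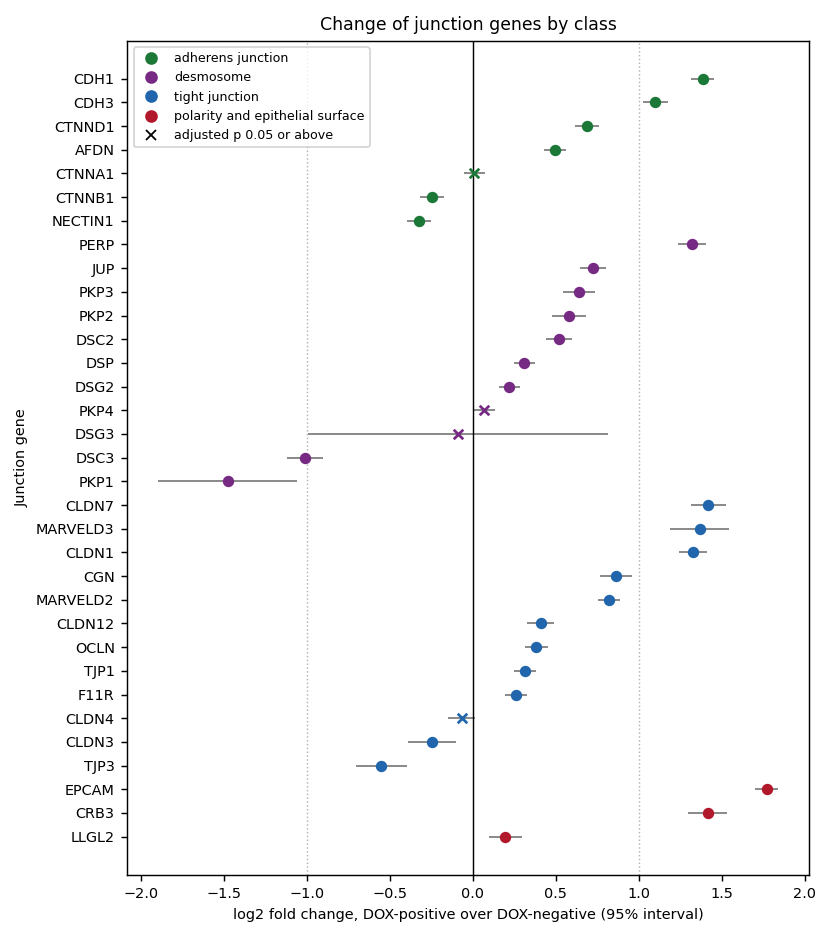
log2 fold change (x axis, DOX-positive over DOX-negative) of the 33 tested junction genes, ordered by structure, with 95% intervals. Crosses mark the 4 genes with adjusted p of 0.05 or above, dotted lines mark 2-fold, and most points of each colour lie to the right of 0.

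**Figure D2:**
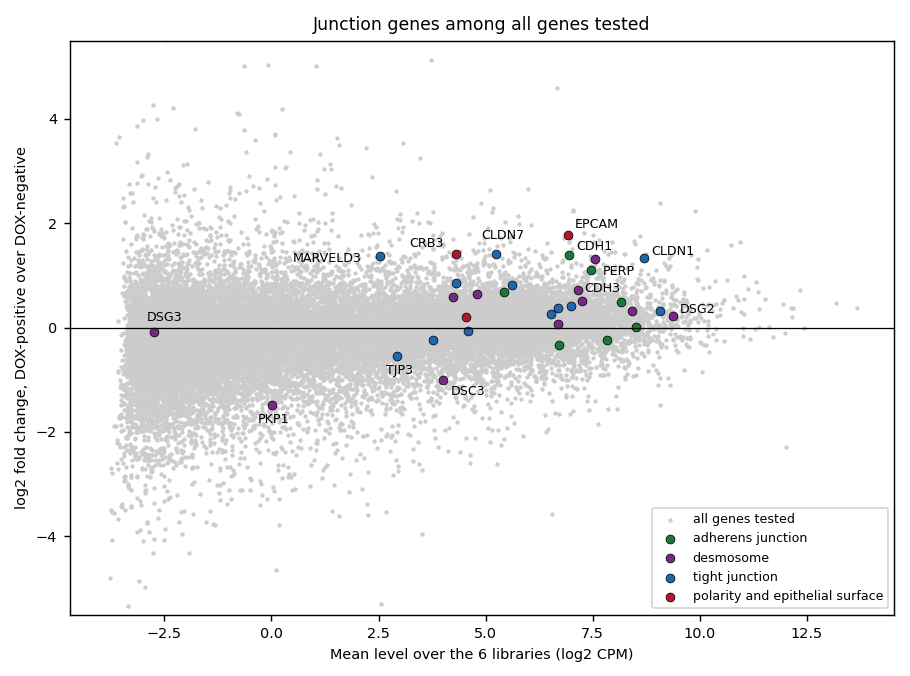
log2 fold change (y axis) against mean level in log2 CPM (x axis) for all 24695 genes tested in grey, with the junction genes coloured by structure. The axis stops at 5.5 in each direction, which leaves out 12 genes; most members lie at the upper levels and above 0.

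The cadherins of the adherens junction rose most within their structure. CDH1, which encodes E-cadherin, stood at 69.9, 68.9 and 67.1 CPM in DOX-negative and 182, 175 and 181 CPM in DOX-positive cultures. The groups were far apart, and the difference was 2.61-fold (log2 fold change 1.38 ± 0.03 SE, edgeR adjusted p 6.89e-15). CDH3, which encodes P-cadherin, stood at 117, 110 and 111 CPM and then at 239, 238 and 248 CPM. Its groups did not overlap either, and it was 2.14-fold higher (log2 fold change 1.10 ± 0.03 SE, edgeR adjusted p 1.57e-13). CDH2, the N-cadherin gene typical of mesenchymal cells, had 0 reads in 5 libraries and 4 reads in the remaining DOX-positive one, and was not tested. Genes were set side by side per kilobase of deposited gene length (RPKM), so such comparisons depend on those lengths. By this measure CDH3 was more abundant than CDH1 in both arms, at 18.6 ± 0.588 and 39.8 ± 0.900 RPKM (SD, n = 3). CDH1 was at 11.2 ± 0.238 and 29.4 ± 0.626 RPKM (SD, n = 3). The CDH1 share of the summed RPKM of CDH1, CDH2 and CDH3 was 37.4%, 38.4% and 37.5% in DOX-negative and 43.1%, 42.3% and 42.0% in DOX-positive cultures, so the shares of the groups did not overlap. That sum leaves out other cadherins, among them CDH24, at 12.0 ± 0.238 and 18.5 ± 0.407 RPKM (SD, n = 3), which was singled out after its values were seen.

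The cytoplasmic partners of the cadherins moved in different directions. CTNND1, p120-catenin, which keeps cadherins at the membrane, rose from 33.9, 32.2 and 33.2 CPM to 53.4, 53.8 and 52.7 CPM, or 1.61-fold (edgeR adjusted p 2.8e-11). CTNNB1, beta-catenin, which links cadherin to alpha-catenin and also serves in Wnt signalling, fell from 258, 246 and 245 CPM to 205, 212 and 214 CPM, or 1.18-fold (edgeR adjusted p 9.93e-06). CTNNA1, alpha-catenin, the link towards actin, stood at 372, 360 and 371 CPM and at 363, 375 and 372 CPM. These groups overlapped, with a log2 fold change of 0.01 (95% interval -0.05 to 0.07, edgeR adjusted p 0.81); with libraries scaled by totals alone it was -0.13 (adjusted p 0.00039). JUP, plakoglobin, the catenin shared by adherens junctions and desmosomes, is set beside beta-catenin here as its close relative. JUP made up 47.1 ± 0.797% of the summed RPKM of CTNNB1, CTNND1 and JUP in DOX-negative and 60.8 ± 1.06% in DOX-positive cultures (SD, n = 3), while CTNNB1 made up 45.6 ± 0.805% and 30.1 ± 0.793%. Per deposited length, the 2 genes were thus near equal in the DOX-negative libraries, and JUP was the larger in each DOX-positive one. This ranking rests on the deposited lengths, 11759 bases for CTNNB1 and 4942 for JUP. In CPM, CTNNB1 was the larger in both groups, at means of 249 against 108 in DOX-negative and 211 against 179 in DOX-positive cultures.

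Of the nectin system, AFDN and NECTIN1 moved in opposite directions. AFDN, afadin, which ties nectins to actin, rose from 237, 236 and 243 CPM to 330, 339 and 342 CPM, or 1.41-fold (edgeR adjusted p 6.54e-10). NECTIN1, a nectin receptor, fell from 120, 114 and 118 CPM to 93.9, 91.0 and 95.4 CPM, or 1.25-fold (edgeR adjusted p 3.45e-07). The receptors NECTIN2 and NECTIN3, outside the members, were not called, at log2 fold changes of -0.06 (95% interval -0.14 to 0.01) and -0.01 (-0.09 to 0.07). NECTIN4, a nectin of epithelial tumours, had between 0 and 8 reads in each library and was not tested.

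**Figure D3:**
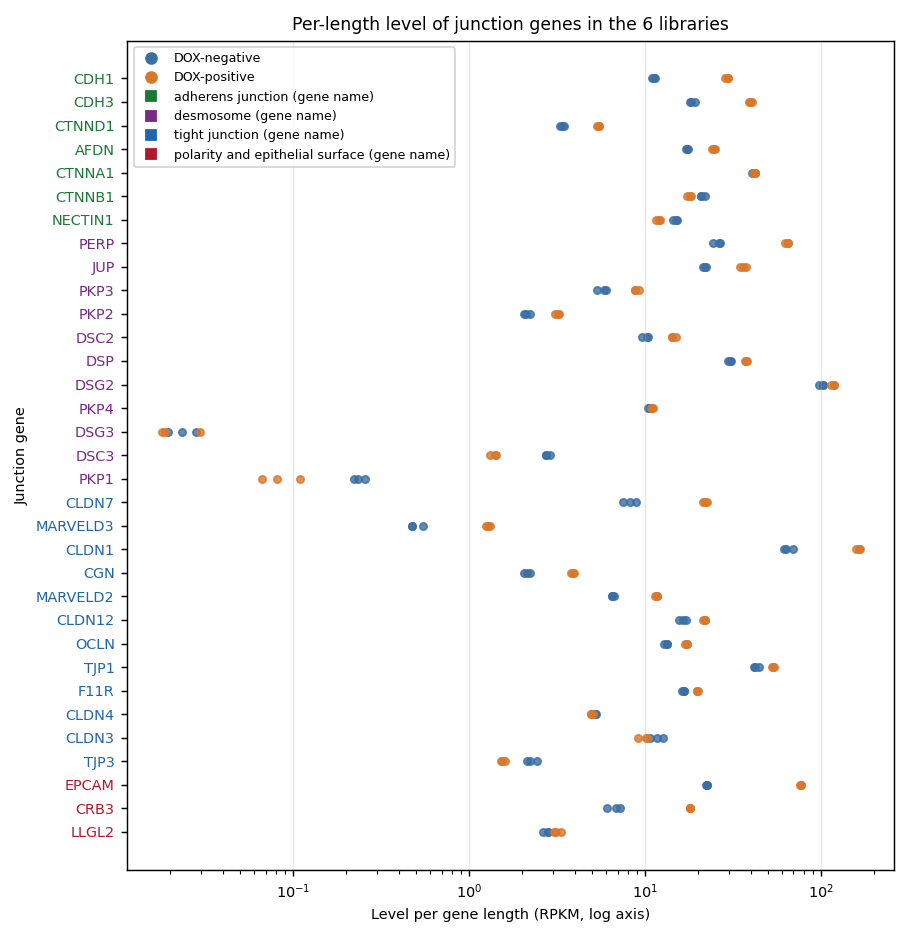
Per-length level (RPKM, log axis) of the 33 tested junction genes in each library, DOX-negative in blue and DOX-positive in orange, 1 point per library. The points of the groups lie apart for nearly all genes, and DSG3 and CTNNA1 are the 2 genes whose groups overlap.

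In the desmosome, the broad change was a moderate rise of the core plaque and its main cadherins. DSG2, the desmoglein of simple epithelia, was the most abundant desmosomal gene per length, at 101.2 ± 3.40 RPKM and 117.9 ± 2.53 RPKM (SD, n = 3). It stood at 627, 589 and 623 CPM and at 696, 721 and 724 CPM, a rise of 1.16-fold (edgeR adjusted p 1.03e-05). DSG3, the desmoglein of stratified epithelia, had 10 to 24 reads per library. It had overlapping groups and a log2 fold change of -0.09 with a wide 95% interval of -0.99 to 0.82 (edgeR adjusted p 0.878). DSG2 held at least 99.97% of the desmoglein level in each library.

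The desmocollins, partners of the desmogleins, separated. DSC2, the widely expressed member, rose from 130, 121 and 128 CPM to 178, 178 and 187 CPM, or 1.43-fold (edgeR adjusted p 3.61e-09). DSC3, typical of basal and stratified cells, fell from 22.2, 21.2 and 21.2 CPM to 10.1, 11.03 and 10.8 CPM, or 2.02-fold (edgeR adjusted p 4.25e-11). Neither gene had overlapping groups. The DSC3 share of the summed desmocollin RPKM went from 21.7 ± 0.524% to 8.73 ± 0.379% (SD, n = 3), while the sum itself was 12.9 ± 0.455 RPKM and 15.9 ± 0.435 RPKM.

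Of the plaque proteins, JUP stood at 109, 105 and 110 CPM and at 179, 171 and 186 CPM, 1.65-fold higher (edgeR adjusted p 5.29e-11). DSP, desmoplakin, which anchors keratin filaments, stood at 305, 299 and 310 CPM and at 378, 371 and 385 CPM, a log2 fold change of 0.31 (edgeR adjusted p 1.95e-07). Both had every DOX-positive culture above every DOX-negative one. The keratin genes KRT8 and KRT18, whose filaments desmoplakin holds, had log2 fold changes of 1.39 and 1.17. Among the plakophilins, which bind desmosomal cadherins and desmoplakin, PKP2 rose 1.49-fold and PKP3 1.56-fold. PKP4, a relative found also in adherens junctions, stood at 100, 99.0 and 102 CPM and at 105, 106 and 104 CPM. Its groups lay apart by a narrow margin and did not pass the test (log2 fold change 0.07, 95% interval -0.00 to 0.13, edgeR adjusted p 0.0869), and with libraries scaled by totals alone it was -0.08. PKP1, a plakophilin of stratified epithelia, was low, at 1.59, 1.38 and 1.46 CPM and then at 0.683, 0.415 and 0.505 CPM, 2.78-fold lower (log2 fold change -1.48 ± 0.20 SE, edgeR adjusted p 6.92e-06). DSC3 and PKP1 were the 2 members that fell at least 2-fold, and both are known from stratified epithelia. PERP, a membrane protein needed for desmosomes in stratified epithelia, went the other way. It stood at 110, 102 and 112 CPM and at 263, 274 and 275 CPM, 2.50-fold higher (edgeR adjusted p 7.16e-14), the largest rise among the desmosome genes.

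**Figure D4:**
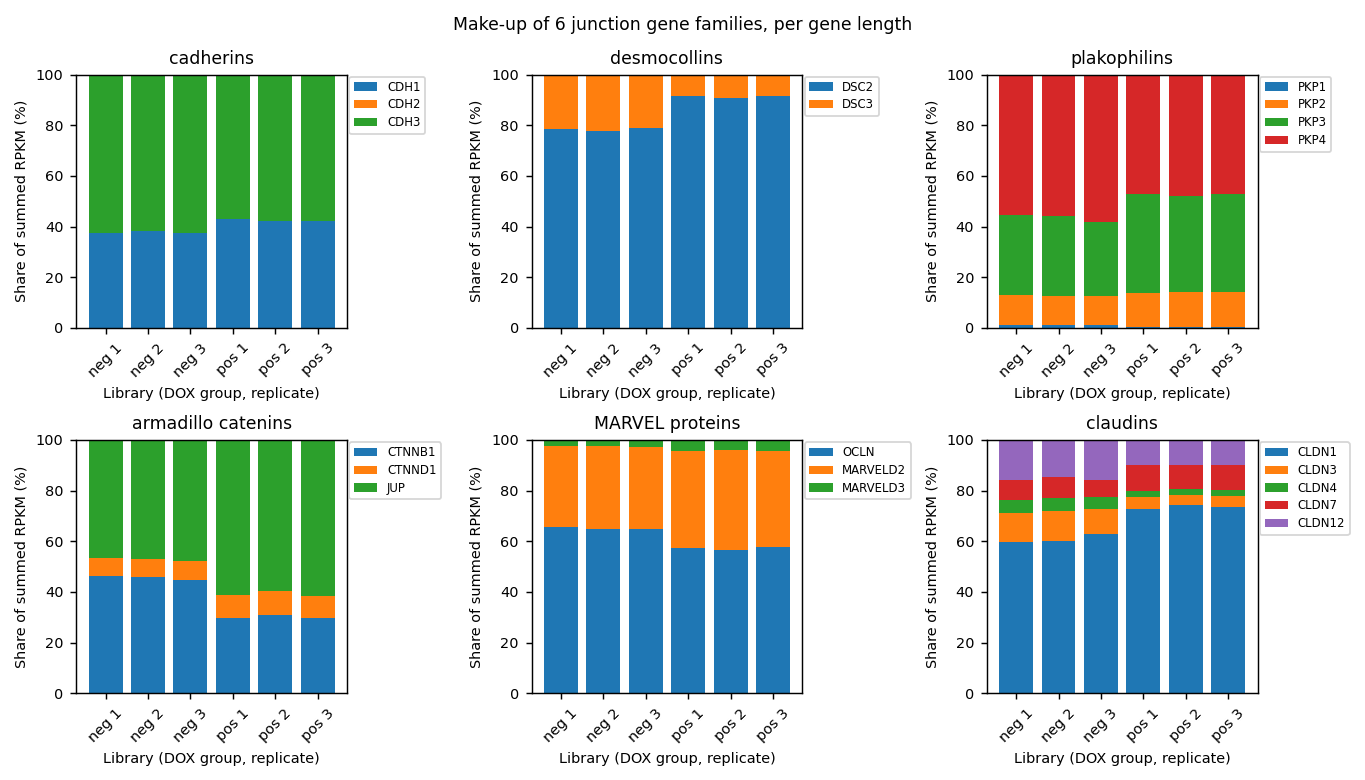
Share of the summed RPKM (y axis, %) held by each member gene of 6 junction families, 1 bar per library. CDH2 is at or near 0 in every bar; the JUP, DSC2, CLDN1 and CDH1 parts are taller in all 3 DOX-positive bars than in any DOX-negative bar.

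Among tight junction genes, CLDN1 and CLDN7 rose most of the 5 member claudins, the proteins that form the seal itself. CLDN1, a sealing claudin, stood at 225, 231 and 251 CPM and at 572, 603 and 600 CPM, 2.51-fold higher (log2 fold change 1.33 ± 0.04 SE, edgeR adjusted p 6.28e-14). CLDN7, which also binds EPCAM, stood at 20.5, 22.2 and 18.7 CPM and at 55.2, 53.2 and 56.2 CPM, 2.67-fold higher (log2 fold change 1.42 ± 0.05 SE, edgeR adjusted p 5.2e-13). Neither pair of groups overlapped. CLDN12, an atypical claudin, rose 1.33-fold (edgeR adjusted p 9.25e-08). CLDN16, a claudin outside the members singled out after its values were seen, had a log2 fold change of 1.45 at a mean of 0.666 CPM in DOX-negative and 1.82 CPM in DOX-positive cultures. It is the neighbour of CLDN1, starting at chr3:190322541 on the plus strand, where CLDN1 on the minus strand begins at chr3:190322475. A link between the rises of CLDN1 and CLDN16 was not tested. In the annotation 19 of the 36 members overlap another gene, and for NECTIN4, CLDN7, CLDN12, MARVELD3 and CRB3 such a gene had at least 10% of the member's count. The strand setting of the counting was not stated, so these rows are uncertain. CTNND1 overlaps TMX2-CTNND1 on its own strand, for which no count was found. That overlap was not assessed, so the CTNND1 level and its catenin share are uncertain too. ELP5, on the opposite strand, shares 38 exon bases with CLDN7 and had a log2 fold change of 0.21. CLDN12 shares 347 and 201 exon bases with GTPBP10 and CDK14 on its own strand, which had log2 fold changes of 0.14 and -0.97. The part of these shared reads in the results was not tested.

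CLDN3 and CLDN4, claudins that bind Clostridium perfringens enterotoxin, had fitted values below 0. CLDN3 stood at 14.97, 16.1 and 13.6 CPM and at 13.2, 11.6 and 13.0 CPM, a narrow separation called 1.19-fold lower (edgeR adjusted p 0.00536). The call was lost without DOX-positive replicate 2 (log2 fold change -0.18, adjusted p 0.0526). CLDN4 stood at 24.9, 24.4 and 24.4 CPM and at 23.2, 23.8 and 23.2 CPM, groups that lay apart without passing the test (log2 fold change -0.07, 95% interval -0.15 to 0.01, edgeR adjusted p 0.145). Under total-count scaling CLDN4 was called lower, at -0.21. The summed level of the 5 member claudins was 106.6 ± 2.93 RPKM in DOX-negative and 221.9 ± 4.59 RPKM in DOX-positive cultures (SD, n = 3). CLDN1 held 60.9 ± 1.81% of that sum and then 73.5 ± 0.717%, and CLDN3 held 10.99 ± 1.15% and then 4.46 ± 0.355%.

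The 3 MARVEL proteins, membrane proteins of the tight junction strand, all rose. MARVELD2, tricellulin, which seals the corners where cells meet, rose from 35.1, 35.0 and 35.99 CPM to 62.6, 63.1 and 61.4 CPM, or 1.77-fold (edgeR adjusted p 1.77e-12). OCLN, occludin, rose from 90.8, 87.2 and 90.4 CPM to 118, 114 and 118 CPM, or 1.30-fold (edgeR adjusted p 3.59e-08). MARVELD3 rose from 3.05, 3.07 and 3.55 CPM to 8.33, 8.04 and 8.51 CPM, or 2.58-fold (edgeR adjusted p 5.86e-10). Occludin thus held less of the family's summed RPKM in DOX-positive cultures, 57.2 ± 0.698% against 65.1 ± 0.489% (SD, n = 3), although its own level was higher. The MARVELD3 row shares 1068 bases, 16.6% of its exon length, with PHLPP2 on the opposite strand, which went from 30.7 to 43.8 CPM, and the part of this overlap was not tested.

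The scaffolds under the strand differed by member. TJP1, which encodes ZO-1, rose from 479, 471 and 504 CPM to 594, 601 and 612 CPM, a log2 fold change of 0.31 (edgeR adjusted p 2.06e-07). CGN, cingulin, a cytoplasmic protein that binds ZO-1, rose from 14.7, 14.1 and 13.6 CPM to 26.3, 25.7 and 25.2 CPM, or 1.82-fold (edgeR adjusted p 6.41e-11). TJP3, which encodes ZO-3, fell from 9.68, 8.78 and 8.53 CPM to 6.08, 6.001 and 6.35 CPM, or 1.47-fold (edgeR adjusted p 5.3e-06). The groups of all 3 scaffold genes lay apart. F11R, the junctional adhesion molecule JAM-A, rose 1.20-fold (edgeR adjusted p 1.94e-06).

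Of the polarity and surface genes, EPCAM, an adhesion protein of epithelial cells, had the largest rise of the 33 tested members. It stood at 54.8, 54.9 and 54.5 CPM and at 185, 189 and 187 CPM, 3.41-fold higher (log2 fold change 1.77 ± 0.03 SE, edgeR adjusted p 3.38e-16). Its fold change ranked at the 99.1 percentile of all genes tested, and the groups lay far apart. CRB3, Crumbs3, which marks the apical membrane and helps place tight junctions, stood at 11.6, 10.99 and 9.72 CPM and at 28.7, 28.8 and 28.9 CPM, 2.67-fold higher (edgeR adjusted p 2.07e-12). The opposite-strand genes SLC25A23 and DENND1C overlap CRB3 and had log2 fold changes of 0.57 and 1.19. DENND1C shares 15 exon bases with it and SLC25A23 shares 0, and the part of these overlaps was not tested. LLGL2, a basolateral polarity protein, rose 1.15-fold (log2 fold change 0.20, edgeR adjusted p 0.00162), a call lost under total-count scaling (0.05, adjusted p 0.335). RAB25, an epithelial trafficking GTPase, had between 0 and 13 reads per library and was not tested. AFDN, CLDN7 and CRB3, whose promoters are printed above, were 1.41-, 2.67- and 2.67-fold higher.

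Several members are neighbours on a chromosome (GRCh38, GENCODE 29), which allowed adjacent genes to be set side by side. CDH3 (chr16:68636189-68722616) and CDH1 (chr16:68737225-68835548) lie 14.6 kb apart on the plus strand, and both rose at least 2-fold. Their flanking genes had smaller rises or fell: ZFP90 and SMPD3 before them at log2 fold changes of -0.23 and -1.13, and TANGO6 and HAS3 after them at 0.33 and 0.62. DSC3 (chr18:30990008-31042815) and DSC2 (chr18:31058840-31102522) lie 16.02 kb apart on the minus strand and moved in opposite directions, at -1.01 and 0.52. The 19.3 kb gap between DSG3 and DSG2 separates a gene not called (-0.09) from one that rose (0.22). MARVELD2 and OCLN lie 48.0 kb apart on chromosome 5, and both rose, at 0.82 and 0.38. Of their flanking genes, TAF9 and RAD17 also rose, at 0.24 and 0.20, and GTF2H2C fell, at -0.22. CLDN3 and CLDN4 lie 29.3 kb apart on chromosome 7, between ABHD11 at a log2 fold change of 0.36 and METTL27 at -0.43, and CLDN3 fell while CLDN4 was not called.

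**Figure D5:**
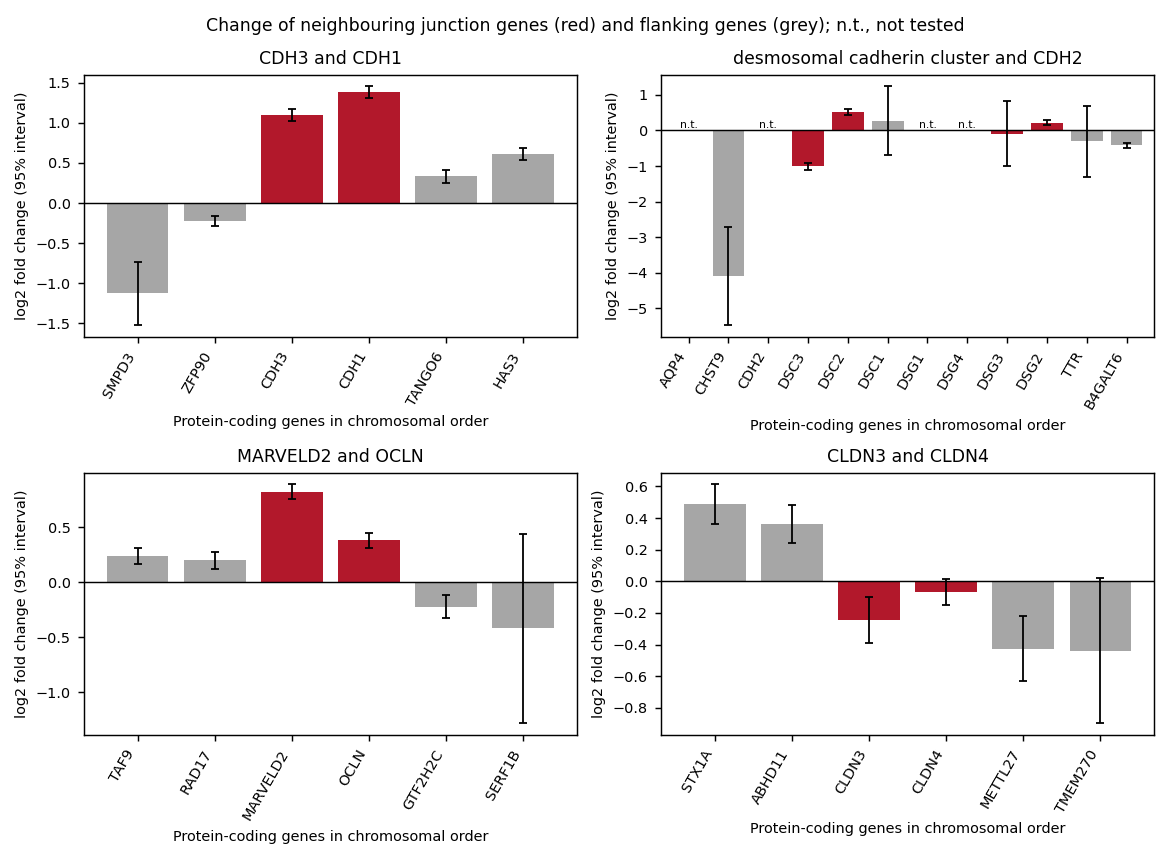
log2 fold change (y axis, with 95% intervals) of neighbouring junction genes in red and flanking protein-coding genes in grey, in chromosomal order, in 4 regions. CDH3 and CDH1 are both above 1, and DSC3 and DSC2 lie on opposite sides of 0.

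A wider set of 77 junction genes outside the 36 was read in the same fit. Of the 65 tested, 23 rose, 26 fell and 16 were not called, with a median log2 fold change of -0.05, near the -0.04 of all genes. Over all genes tested, 27.6% were called higher and 28.9% lower, or 40.6% and 32.7% of genes with at least 1 CPM in 3 libraries. Among the higher genes with the smallest p were LIMA1, an actin-binding protein that joins alpha-catenin, at a log2 fold change of 1.40, the scaffold MAGI1 at 1.06 and the apical constriction protein SHROOM3 at 0.76. The 4 lower genes with the smallest p, among those with a mean of at least 1 CPM, were CLDND1 at -0.91, CLDN11 at -1.10, the angiomotin gene AMOT at -0.80 and CLDN2, a pore-forming claudin. CLDN2 stood at 2.53, 2.02 and 2.41 CPM and at 0.417, 0.284 and 0.303 CPM, 6.95-fold lower (edgeR adjusted p 2.07e-09). The groups of CLDN2 lay apart.

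Among 23 transcription and splicing regulators of epithelial and mesenchymal state, 17 were tested, of which 5 rose and 10 fell (median log2 fold change -0.28). Of all genes tested, 27.6% were called higher and 28.9% lower, or 40.6% and 32.7% of genes with at least 1 CPM in 3 libraries. ZEB1, a repressor of CDH1, fell from 46.3, 44.5 and 49.0 CPM to 24.1, 26.1 and 25.9 CPM, or 1.84-fold (edgeR adjusted p 2.96e-11). ZEB2, its relative, fell from 4.32, 4.59 and 5.64 CPM to 0.873, 1.02 and 0.969 CPM, or 5.06-fold (edgeR adjusted p 2.72e-10). SNAI2, also known as a repressor of CDH1, went the other way, from 3.14, 3.68 and 3.53 CPM to 12.8, 13.1 and 13.7 CPM, or 3.82-fold higher (edgeR adjusted p 1.53e-12). Known repressors of CDH1 therefore moved in both directions beside its rise. SNAI1 and SNAI3 fell by 0.31 and 0.67 on the log2 scale, and TWIST1 had 0 reads in every library. Of the epithelial regulators, the splicing factors ESRP1 and ESRP2 had log2 fold changes of 1.96 and 0.66, and OVOL2, a repressor of ZEB1, 1.34. KLF4, an epithelial transcription factor, fell by 0.38. GRHL2, which activates CDH1 and CLDN4 in other epithelia, lay at 0.0606 to 0.239 CPM over the 6 libraries with overlapping groups and was not called (log2 fold change -0.83, edgeR adjusted p 0.157). OVOL1 lay at 0.0190 to 0.102 CPM and was not tested. The part of any of these regulators in the junction gene changes was not tested.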

How the data were processed

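Polyadenylated RNA of 6 DU-145 cultures was sequenced from stranded libraries, per the labels' protocols. The deposited table holds the authors' raw read counts per gene, with a gene length and no normalization. Per the submitters' processing notes, the tools were STAR 2.7.9a, CASAVA 1.8.2 and DESeq2 1.24.0 and the build was GRCh38.p7, with no roles stated. Not given in the sources used here are the counting tool, its strand setting and its handling of shared reads, so genes that overlap others are uncertain. Groups came from the sample titles, and 0 sample columns went unused.

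Counts were filtered with filterByExpr (minimum count 10), scaled by TMM and tested in edgeR 4.0.16 by its quasi-likelihood test on group alone. Benjamini-Hochberg adjustment ran over all 24695 genes tested. CPM and RPKM used TMM-scaled totals of the tested genes, and RPKM the deposited lengths. The code was tested on simulated data. Replicates differed by more than sampling noise (chi-square per degree of freedom 6.40 to 20.8 within groups, 214 to 285 between), so none were merged. Positions came from GENCODE 29, matched for 58489 gene IDs, and promoters from RefSeq.

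The members and gene lists were chosen with earlier results of these data known. All 36 members were named. From each other list, up to 4 genes per direction with the smallest p were named, among those called with a mean of at least 1 CPM, and 8 regulators whatever their result; some genes that this rule picks are not reported here. The share of genes called among those with at least 1 CPM, and the cutoff of 4 E-boxes, were added after the data were seen. Alternatives were DESeq2 1.42.0, limma-voom (limma 3.58.1), other scalings and filters, a replicate block and leaving out each library.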

Additional observations from a re-analysis of the deposited data

How the results depend on the processing

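Of the 33 tested members, 27 kept their direction and their side of the threshold in each of 14 alternatives, 22 higher and 5 lower. The exceptions were CTNNA1, DSG3, PKP4, CLDN3, CLDN4 and LLGL2. The log2 fold change of CTNNA1 was -0.027 with the filter of at least 1 CPM in 3 libraries, -0.13 with total-count scaling and -0.050 with upper-quartile scaling, and -0.0077 to 0.040 when 1 library was left out. The log2 fold change of DSG3, at 10 to 24 reads per library, ranged from -0.37 to 0.064 when 1 library was left out, and depth limits its precision. The log2 fold change of PKP4 was -0.078 with total-count scaling (adjusted p 0.0306), and PKP4 was called higher with the DESeq2 Wald test and without DOX-negative replicate 3 (0.10). CLDN4 was called lower with the 1 CPM filter, total-count scaling and upper-quartile scaling (-0.10, -0.21 and -0.13). Total-count scaling moved the class medians to 0.35 for adherens junction, 0.17 for desmosome, 0.25 for tight junction and 1.27 for polarity and surface genes, a shift shared by all genes. Over all alternatives, the members called higher numbered 22 to 24 and those called lower 5 to 9.

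The DOX-negative and DOX-positive cultures share replicate numbers. Deviations from the group means correlated at -0.22, -0.07 and 0.02 for replicates 1, 2 and 3 over 15009 genes. DOX-negative replicate 2 correlated at 0.33 with DOX-positive replicate 1 and at -0.29 with DOX-positive replicate 3. Deviations of 3 cultures sum to 0 within a group, so these values cannot settle whether cultures were paired, by number or in another way. With a replicate block, 23 members were higher and 6 lower, as without it, and 13503 genes changed in all, against 13957.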

Other observations

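Connexin genes, whose proteins form gap junction channels between cells rather than adhesive contacts, were listed apart from the 36 members. The list also held the pannexins PANX1 and PANX2. Of the 16 genes in this list, 10 were tested, 6 rose and 2 fell. The shares over all genes tested were 27.6% higher and 28.9% lower, or 40.6% and 32.7% with at least 1 CPM in 3 libraries. The median change of the 10 tested genes of this list on the log2 scale was 0.35, against -0.04 for all genes tested. The groups lay apart for the connexin GJC1 at a log2 fold change of 0.45, the connexin GJA3 at 0.38 and the pannexin PANX2 at 0.33. GJD3, a connexin at a low level, stood at 2.16, 2.04 and 2.16 CPM and at 0.484, 0.609 and 0.565 CPM, 3.82-fold lower (edgeR adjusted p 2.48e-08). PANX1 had overlapping groups and a log2 fold change of -0.11 (edgeR adjusted p 0.0381), and its call was lost in 7 of 14 alternatives.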
